A study of Mus musculus with 2 samples.

Results

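The genes examined are 10 members of the Bcl2 family, the proteins that set whether a cell survives or dies through its mitochondria. The list was drawn up with earlier results of these data known. Members were matched by name: any array probe, not a control, on both arrays whose accession maps to a member's symbol. All 10 were found, with 14 probes, among 20651 named genes with a probe on both arrays, and all 10 were well above background on both arrays by their brightest probe. Bone marrow LSK cells came from wild type C57BL/6 mice at 8 weeks of age, and fetal liver LSK cells from wild type embryos at E14.5, for which the labels used here give no strain. LSK cells lack lineage markers and carry Sca-1 and c-Kit, which makes them the fraction that holds blood stem cells and multipotent progenitors. These are called marrow cells and fetal cells. In both groups the cells were freshly isolated, not transplanted, and sorted by flow cytometry, and RNA (20 ng) was labelled with Cy3 for a 1-colour Agilent array. There was 1 array a group. The labels used here do not say how many mice or embryos were pooled in a sample. No value therefore has a replicate check and no p-value is given. Tissue, age and array slide differ together and cannot be told apart.

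In this family, survival proteins (Bcl2, Bcl2l1, Mcl1, Bcl2l2) bind and restrain the effectors Bax and Bak1, which otherwise open the outer mitochondrial membrane. BH3-only proteins (Bcl2l11, Bid, Bad, Bmf) sense stress and either occupy the survival proteins or, for some, activate the effectors directly. In mice, Mcl1 is required for the survival of blood stem cells, Bcl2l1 for that of maturing red cell precursors, and Bcl2l11 for the removal of surplus lymphocytes. Much of the control of these proteins is exerted after transcription, through turnover and phosphorylation, which an array of RNA does not measure.

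As a check of the sort, Kit was at 22.8 and 22.9 times the array's 75th percentile of signal in marrow and fetal cells, and the Sca-1 gene Ly6a at 21.5 and 4.43 times. The share of probes well above background was 47.4% with marrow RNA and 46.4% with fetal RNA. Of markers of other cells, 7 of 8 erythroid genes were measured, of which 0 were higher in marrow cells and 4 higher in fetal cells by 2-fold or more. Of 9 neutrophil genes measured, 5 were higher in marrow cells (Retnlg and Mmp8 as bounds) and 0 in fetal cells by that amount. Of 8 hepatocyte genes 4 were measured, of which 3 were higher in marrow cells (Fgb as a bound) and 0 in fetal cells by that amount. These bounds are of genes not well above background in fetal cells. Over all 13381 genes measured, the shares at 2-fold or more were 8.15% toward marrow cells and 6.76% toward fetal cells. Of 6 B cell genes 2 were measured, Cd79b at 22.5 times the 75th percentile in marrow cells and 29.7 times in fetal cells and Cd22 at 0.425 and 0.454 times, while the others, Cd79a, Ms4a1 and Pax5 among them, were not well above background on either array. The hepatocyte genes Alb, Ttr, Apoa1 and Ahsg were not either. In such bulk samples, fewer cells of a type and less RNA per cell cannot be told apart.

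The promoter stretches below belong to members that were at least 2-fold apart between the arrays. First come a survival gene and a BH3-only gene higher in marrow cells, then a BH3-only gene and a survival gene higher in fetal cells. The stretches are RefSeq sequences of mouse build GRCm38.p6, 5′ to 3′ in the direction of the gene, as the 250 bases before a transcript start. For Bcl2l1 only 30 bases around its motif match are given, since this start lies downstream of the gene's other starts. The other windows of Bcl2l1 and Bmf held no match and are not shown, so these 2 stretches are the ones with a match. The other window of Bcl2l11, with 2 matches, and the windows of Mcl1 and Bcl2l2, with 1 match each, are not shown either. Capitals mark matches, on either strand, to any of 6 motifs searched: TTCNNNGAA of STAT factors, GTAAACA of FoxO factors, GATAA of GATA factors, TGACG of CREB and ATF factors, CACGTG of E-box factors and GGGCGG of Sp factors.
Bcl2, chr1:106714291-106714540, minus strand: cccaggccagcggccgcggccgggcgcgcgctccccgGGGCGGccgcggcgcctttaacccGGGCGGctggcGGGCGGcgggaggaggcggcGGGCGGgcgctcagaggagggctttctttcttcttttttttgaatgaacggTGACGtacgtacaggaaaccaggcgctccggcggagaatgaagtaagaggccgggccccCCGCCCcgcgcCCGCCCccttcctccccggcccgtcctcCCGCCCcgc
Bcl2l11, chr2:128125788-128126037, plus strand: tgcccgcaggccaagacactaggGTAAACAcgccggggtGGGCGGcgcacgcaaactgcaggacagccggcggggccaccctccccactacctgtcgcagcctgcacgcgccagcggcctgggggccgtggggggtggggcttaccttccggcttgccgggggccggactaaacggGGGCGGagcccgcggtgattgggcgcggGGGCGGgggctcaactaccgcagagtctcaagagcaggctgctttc
Bmf, chr2:118549687-118549936, minus strand: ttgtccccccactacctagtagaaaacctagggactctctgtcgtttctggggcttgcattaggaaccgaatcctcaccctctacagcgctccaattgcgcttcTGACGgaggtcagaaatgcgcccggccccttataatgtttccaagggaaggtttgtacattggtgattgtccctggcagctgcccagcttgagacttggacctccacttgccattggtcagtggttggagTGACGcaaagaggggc
Bcl2l1, chr2:152828513-152828542, minus strand: attgtgacccaaaGATAAagagagcagagg

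All 10 members had a window in that table, 16 windows in all because several genes have more than 1 start. GGGCGG was found in 5 of 5 windows of the genes higher in marrow cells (Bcl2, Mcl1, Bcl2l2 and Bcl2l11), in 0 of 6 windows of the genes higher in fetal cells (Bcl2l1 and Bmf) and in 3 of 5 windows of the other members, against 32.7% of 32851 windows of all genes. The G and C content ran the same way, at 64.4% to 74.8% for the genes higher in marrow cells and 47.6% to 55.6% for the genes higher in fetal cells, against 54.0% to 64.8% for the other members and a median of 52.4% over all windows. Matches to GGGCGG in a window numbered 7 for Bcl2, 3 and 2 for Bcl2l11, and 1 each for Mcl1 and Bcl2l2. Among the other members they numbered 3 for Bid, 3 in 1 window of Bad and 2 for Bax. These windows are few, several belong to 1 gene, and the pattern was seen after the differences were known, so it is a description only. GTAAACA was found in 1 window of Bcl2l11, starting 227 bases before the start, and in 3.17% of all windows. GATAA was found in 1 of 3 windows of Bcl2l1, 40 bases before the start, and in 22.6% of all windows. TGACG stood in the window of Bcl2 and in 1 of Bmf (17.8% of all windows), CACGTG in that of Bax (6.02%), and TTCNNNGAA in 0 of the 16 (7.02%). A match is a run of letters, not a measured binding site.

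Of the 4 survival genes, 3 passed 2-fold in the direction of marrow cells and 1 in that of fetal cells. By their brightest probes, Mcl1, Bcl2 and Bcl2l2 stood at folds of 2.62, 2.49 and 2.44 higher in marrow cells. Bcl2l1, which encodes Bcl-xL, was 2.74-fold higher in fetal cells by its brightest probe. Of the 6 death genes, 4 (Bax, Bak1, Bid and Bad) were under 2-fold, and the 2 past it were BH3-only genes in opposite directions, Bcl2l11 (Bim) higher in marrow cells and Bmf higher in fetal cells. At least 2-fold differences thus held for 6 of 10 members, against 14.9% of the 13381 genes measured. Since the members were chosen with earlier results of these data known, such shares are descriptions only. By direction, 4 of 10 members were higher in marrow cells, against 8.15% of genes, and 2 of 10 in fetal cells, against 6.76%. With spike-in scaling the members' counts were again 4 and 2, against 13.04% and 3.83% of genes. Dim genes pass 2-fold more often, at 22.8% of the dimmest, 13.4% of the middle and 8.61% of the brightest of 3 equal groups of genes by mean signal. Bcl2l11, Bmf and Bcl2l2 were in the dimmest group, Bcl2 in the middle group, and Mcl1, Bcl2l1 and the 4 death genes under 2-fold in the brightest. At 1.5-fold the same 4 and 2 members passed, against 32.5% of genes. At 3-fold 1 member passed, Bcl2l11, against 6.68% of genes.

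**Figure D1:**
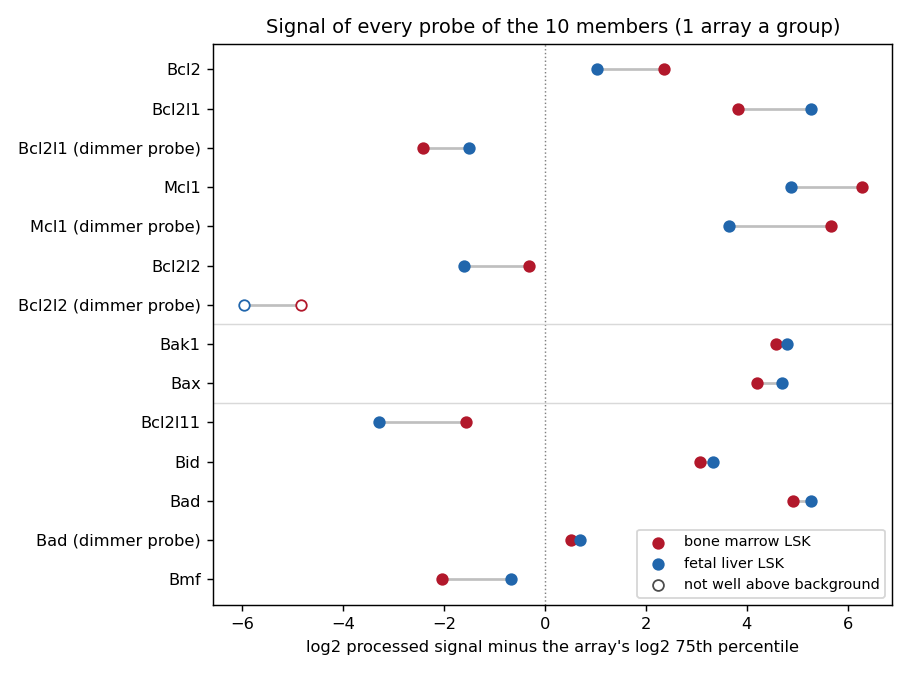
Processed signal of each of the 14 probes in marrow cells (red) and fetal cells (blue), as log2 signal minus the array's log2 75th percentile, 1 array a group, with the grey line joining the arrays. Both probes of Mcl1 lie higher in marrow cells and both of Bcl2l1 higher in fetal cells, and the dimmer Bcl2l2 probe (open) is not well above background on either array.

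Levels are given as processed signal, in arbitrary units, and, for comparison between arrays, as multiples of the array's 75th percentile. Differences are on the log2 scale, bone marrow minus fetal liver, and ± gives an error computed from the image software's error estimate of each signal. For the bright members this error was close to 0.20 throughout, so it is not a spread measured for each gene. It leaves out all variation between animals. Levels of different genes come from different probes and are not compared.

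Mcl1, a short-lived survival protein that holds Bak1 in check, gave 13864 units in marrow cells and 3958 in fetal cells. These were 77.5 and 29.5 times the 75th percentile of their arrays, a difference of 1.39 ± 0.20. The other Mcl1 probe had 9152 in marrow cells and 1689 in fetal cells and a larger difference of 2.02 ± 0.20, or 4.06-fold. Both probes of this gene were therefore higher in marrow cells, and the gap between them exceeds the median gap of 0.23 between the probes of 2549 genes with 2 measured probes. It lay under the 90th percentile of those gaps, 0.78. Of 9 neutrophil markers measured, 7 were higher in marrow cells, 5 of them by 2-fold or more, beside 42.2% and 8.15% of all genes. Their summed level was 162.4 times the 75th percentile in marrow cells and 139.5 times in fetal cells. All 5 mast cell and basophil markers measured were higher in marrow cells, 3 of them by 2-fold or more, with sums of 4.45 and 1.82 times. The part of neutrophil, mast cell and basophil markers in the differences of Mcl1 and the other genes higher in marrow cells was not tested.

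Bcl2, the founding survival gene of the family, gave a signal of 915.6 in marrow cells and 275.0 in fetal cells (5.12 and 2.05 times the 75th percentile), a difference of 1.32 ± 0.20. Bcl2 was read by 1 probe, whose accession, NM_177410, is 1 of 2 RefSeq transcripts of the gene. The sources used here do not say whether the probe reads both. Bcl2l2, which encodes the survival protein Bcl-w, had 142.8 in marrow cells and 43.8 in fetal cells (0.798 and 0.327 times the 75th percentile), a difference of 1.29 ± 0.22. Its other probe, at 6.28 in marrow cells and 2.15 in fetal cells, did not stand well above background on any array and gives no fold.

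Bcl2l1 went the other way. Its brighter probe had 2522 in marrow cells and 5178 in fetal cells, 14.1 and 38.6 times the 75th percentile, a difference of -1.45 ± 0.20. The dimmer probe had 33.5 in marrow cells and 47.2 in fetal cells and a smaller difference of -0.91 ± 0.25, or 1.88-fold higher in fetal cells. Both probes were higher in fetal cells, 1 of them past 2-fold. The erythroid markers listed moved with it: their summed level was 99.95 times the 75th percentile in marrow cells and 770.1 times in fetal cells. A single gene held 94.9 and 754.9 of these sums, and the other 6 measured summed to 5.06 times in marrow cells and 15.1 times in fetal cells. All 7 were higher in fetal cells. Of the GATA factors listed, whose motif stood in a Bcl2l1 window, Gata1 and Gata2 were higher in marrow cells, by 0.49 and 0.67. The part of these markers and factors in the Bcl2l1 difference was not tested.

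Set against each other within an array, these opposite differences do not depend on how the arrays are scaled by a constant. The signal ratio of Mcl1 to Bcl2l1 was 7.19-fold higher in marrow cells than in fetal cells (2.85 ± 0.29 log2). For Bcl2 to Bcl2l1 it was 6.84-fold higher (2.77 ± 0.29), and for Bcl2l2 to Bcl2l1 6.69-fold higher (2.74 ± 0.30). These pairs were chosen after the values were seen. They show unequal change among the survival genes, not that 1 of them stayed the same. All 3 ratios share Bcl2l1, so they are not separate observations.

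**Figure D2:**
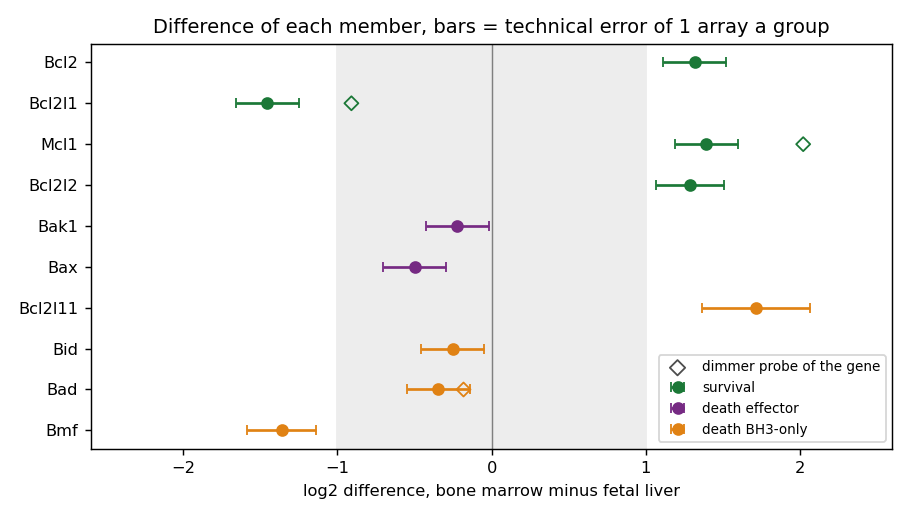
Difference of each member, log2 bone marrow minus fetal liver, with bars for the software's technical error and diamonds for a dimmer probe that was well above background. The grey band is under 2-fold: Bcl2, Mcl1, Bcl2l2 and Bcl2l11 lie right of it, Bcl2l1 and Bmf left of it, and the 4 other death genes inside it.

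The effectors showed small differences. Bak1 gave a signal of 4286 in marrow cells and 3745 in fetal cells (23.96 and 27.95 times the 75th percentile), a difference of -0.22 ± 0.20. Bax had 3294 in marrow cells and 3488 in fetal cells (18.4 and 26.03 times), a difference of -0.50 ± 0.20, or 1.41-fold higher in fetal cells. The Bak1 difference is about the size of its technical error. Bak1 turned to 0.11 when the arrays were scaled by spike-in controls, so its direction depends on the scaling. Bax was at -0.17 under that scaling and on the fetal side in all 12 alternatives.

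Among BH3-only genes, Bcl2l11 and Bmf differed by over 2-fold and Bid and Bad did not. Bcl2l11, whose protein Bim can engage every survival protein of the family, gave a signal of 60.1 in marrow cells and 13.7 in fetal cells (0.336 and 0.102 times the 75th percentile), a difference of 1.72 ± 0.35, or 3.29-fold. The fetal liver signal is close to 9.82, the lowest value among probes called well above background there. With normexp background correction, which adds an offset of 50 to every signal, the Bcl2l11 difference shrank to 0.37. An offset of that size beside signals of 60.1 and 13.7 shrinks a fold in any case. The size of the difference is poorly fixed with so low a fetal signal, while its direction was the same in all 12 processing alternatives. Several of these could not turn it, since choices of probe and filter leave this 1-probe gene at 1.72. Its single probe carries NM_207680, 1 of 9 RefSeq transcripts of the gene.

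Bmf, a BH3-only protein tied to the cytoskeleton through a dynein light chain, gave a signal of 43.4 in marrow cells and 83.5 in fetal cells (0.243 and 0.623 times the 75th percentile), a difference of -1.36 ± 0.22, or 2.57-fold higher in fetal cells. The difference was -0.84 with normexp, under 2-fold, though the offset shrinks the folds of dim genes in any case. The ratio of Bcl2l11 to Bmf was 8.44-fold higher in marrow cells (3.08 ± 0.42), a pair also chosen after its values were seen, and 1.22 log2 with normexp. Both genes are dim, so the technical error is larger here than for the effectors.

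Bid, which links death receptors to mitochondria once caspases cleave it, had 1506 in marrow cells and 1344 in fetal cells (8.42 and 10.03 times), a difference of -0.25 ± 0.20. Bad, which is held inactive by phosphorylation and binding to 14-3-3 proteins, had 5427 in marrow cells and 5166 in fetal cells (30.3 and 38.6 times), a difference of -0.35 ± 0.20, and its dimmer probe gave -0.18 ± 0.21. Both genes were under 1.5-fold. Under spike-in scaling they were at 0.08 and -0.01, so the direction of Bid turned.

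By role, the 4 survival genes had a median difference of 1.30 and the 6 death genes one of -0.30, against -0.11 for all 13381 genes measured. Over all 10 members the median was -0.24, with 4 higher in marrow cells and 6 higher in fetal cells, while 42.2% of all genes were higher in marrow cells. Spike-in scaling, which moves the median of all genes to 0.23, turned the death median to 0.03 and left 6 members higher in marrow cells. The gap between the survival and the death medians, 1.60, is unaffected by such scaling. It rests on few genes that do not move as blocks, since Bcl2l1 and Bcl2l11 each stand opposite to the median of their role.

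**Figure D3:**
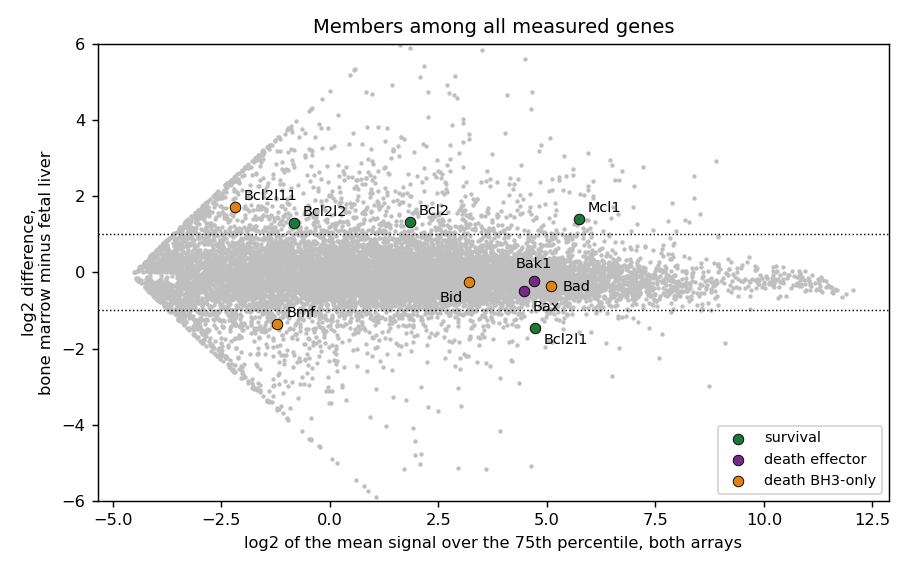
Difference (vertical, log2 bone marrow minus fetal liver) against mean signal (horizontal, log2 over the 75th percentile) for the 13381 measured genes (grey) and the 10 members (coloured by role). Dotted lines mark 2-fold, and 10 genes lie beyond the vertical axis. Mcl1 and Bcl2l1 lie beyond the 2-fold lines among bright genes, as do 8.61% of genes in the brightest group by mean signal. Bcl2l11, Bmf and Bcl2l2 sit among dimmer genes, where 22.8% of genes in the dimmest group are at least 2-fold apart.

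In size, the differences of Mcl1, Bcl2l1 and Bcl2 exceeded those of 91.3%, 92.0% and 90.6% of measured genes, and that of Bcl2l11 exceeded 94.2%. Bak1, Bid and Bad exceeded 30.9%, 34.6% and 46.0%. Of the members past 2-fold, 3 (Bcl2l1, Bcl2l11 and Bmf) have their promoters on chromosome 2, and they do not share a direction. The share of all genes on that chromosome was not taken, so this count only gives their location.

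The other family members were split as well. Of 16 listed, 14 had a probe and 10 were measured, with 2 past 2-fold in each direction and a median difference of 0.01. Pmaip1 (Noxa), a BH3-only protein that binds Mcl1, gave a signal of 393.6 in marrow cells and 127.2 in fetal cells, 2.32-fold higher in marrow cells (1.21 ± 0.21). Bcl2a1d, a survival gene of the A1 group, had 554.7 in marrow cells and 172.8 in fetal cells, 2.40-fold higher (1.27 ± 0.20). Near-identical A1 copies can share its probe, so its value is uncertain, and Bcl2a1a and Bcl2a1b had no matched probe. Bcl2a1c, of the same group, was at least 1.87-fold higher in marrow cells, from a dim signal of 24.5.

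Bok, an effector relative of Bax, had 787.2 in marrow cells and 1935 in fetal cells, 3.28-fold higher in fetal cells (-1.71 ± 0.20). Bcl2l14 had 221.3 in marrow cells and 627.6 in fetal cells, 3.79-fold higher in fetal cells (-1.92 ± 0.20), but its other probe gave -0.60. Bok and Bcl2l14 thus lay with Bcl2l1 and Bmf. Bbc3 (Puma), a BH3-only target of Trp53, differed by 0.74 ± 0.20, under 2-fold. Bcl2l13 was at -0.59 and Bnip3 at -0.29, and Bcl2l12 and Bnip3l were both at 0.01. Bcl2l10, Bcl2l15, Bik and Hrk were not well above background on either array.

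The caspase and death receptor genes lay closer together. Of 13 genes of the apoptosome and caspases, 0 were at least 2-fold apart, with a median of -0.33 and a range of -0.66 to 0.36. Inhibitors of apoptosis had 0 of 8 measured past 2-fold (median -0.18, range -0.40 to 0.95) and the death receptor pathway 0 of 12 (median 0.13, range -0.34 to 0.95), beside 14.9% of all genes. The counts of the last 2 lists depend on the setting. Birc3 (0.95) and Tnfsf10 (0.95), both 1.93-fold higher in marrow cells, were just under the threshold, and they passed it with spike-in scaling, as did Birc2 (0.78), and with the percentile taken over probes above background on both arrays. Cflar, an inhibitor of caspase 8, was at 0.65 by its brightest probe, but its probes ran up to 2.73. These 4 genes were singled out after their values were seen.

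Among 20 genes whose proteins bind or modify the members, 2 passed 2-fold toward marrow cells and 1 toward fetal cells, which is 15.0% of the list beside 14.9% of all genes. Pim3 and Pim1, kinases known to phosphorylate Bad, were 3.43-fold (1.78 ± 0.20) and 2.24-fold (1.16 ± 0.20) higher in marrow cells. Pim3 gave a signal of 985.1 in marrow cells and 215.2 in fetal cells, and Pim1 had 988.1 in marrow cells and 330.6 in fetal cells. Dynll1, a dynein light chain that binds Bim, gave 91.9 in marrow cells and 141.7 in fetal cells, 2.06-fold higher in fetal cells (-1.04 ± 0.21), and was under 2-fold with spike-in scaling. Of 16 transcription factors known to act on family genes, 1 passed 2-fold (6.25%). It was Ddit3 (CHOP), a stress factor known to raise Bcl2l11 in other mouse cells, at 1049 in marrow cells and 195.9 in fetal cells, 4.01-fold higher in marrow cells (error 0.20 log2). The median of that list was 0.32. Of its FoxO factors, whose motif stood in a Bcl2l11 window, Foxo1 was at 0.08 and Foxo3 at -0.52. The part of Ddit3 or of these factors in the Bcl2l11 difference was not tested. Under spike-in scaling the count over all 6 lists was 12 genes at least 2-fold higher in marrow cells, against 5 in the main setting; of the 12, 3 were inhibitor of apoptosis or death receptor genes.

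**Figure D4:**
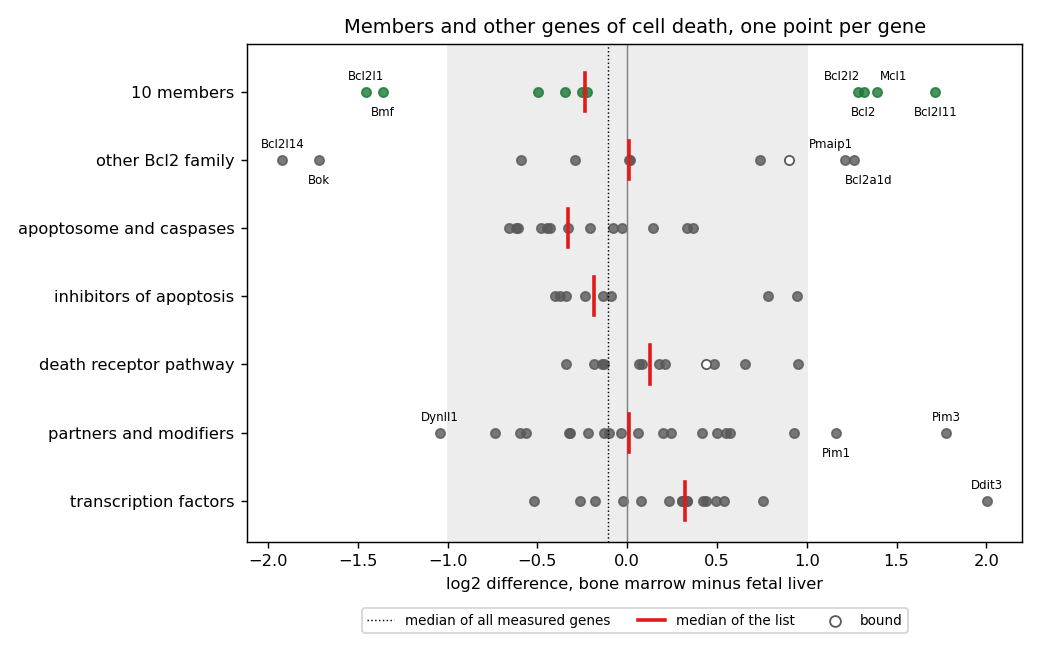
Differences, log2 bone marrow minus fetal liver, for the members and for 6 lists of other cell death genes, 1 point per gene, with each list's median in red and the median of all measured genes as a dotted line. Genes past 2-fold are named, and the caspase, inhibitor of apoptosis and death receptor lists have none in this setting.

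The alternatives moved sizes more than directions. The 6 members past 2-fold were on the same side of 0 in all 12 processing alternatives, and 2 of them, Bcl2 and Mcl1, stayed past 2-fold in every one. That count is a weak check: several alternatives shift all genes by 1 constant, and those of probe choice leave a 1-probe gene unchanged. Across the alternatives Bcl2 lay between 1.30 and 1.65 and Mcl1 between 1.39 and 2.02. Bcl2l1 lay between -1.46 and -0.91, Bmf between -1.40 and -0.84, Bcl2l2 between 0.75 and 1.62, and Bcl2l11 between 0.37 and 2.05.

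**Figure D5:**
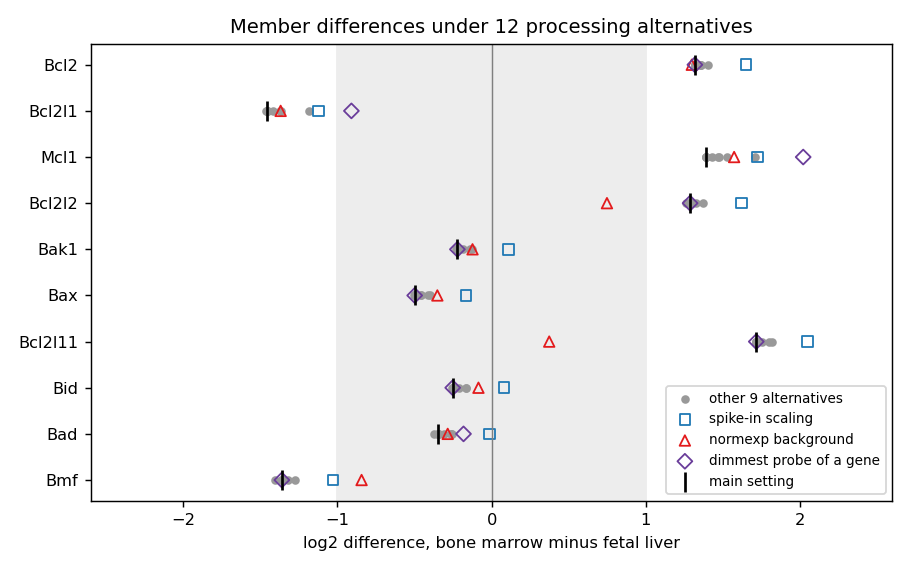
Difference of each member, log2 bone marrow minus fetal liver, in the main setting (black bar) and under 12 processing alternatives, of which spike-in scaling, normexp background correction and the dimmest probe are marked. Normexp, whose offset shrinks the folds of dim genes in any case, pulls Bcl2l11, Bcl2l2 and Bmf inside the grey 2-fold band. The dimmer probe does so for Bcl2l1, and spike-in scaling shifts every gene to the right.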

How the data were processed

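RNA of marrow and fetal LSK cells was measured on 1 single-colour Agilent array each. The scanner output is intensity per spot on a linear scale, as deposited; per the file headers, Feature Extraction (10.7.1.1) took off the background and a fitted spatial gradient and applied no scaling across the arrays. Flags, error estimates and median spot and background intensity are further deposited columns. The authors' value table holds a linear ratio: on probes printed once it equalled the processed signal divided by 178.6 (marrow) and 133.9 (fetal), within 0.1% for 99.995% of probes. Its column medians were 0.0589 and 0.0604. It is neither logged nor centred, and the origin of the constants is not stated in these sources.

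Control spots and outlier spots (137 marrow, 122 fetal) were left out, no spot was saturated, and repeated spots were averaged. Values are log2 signal minus the array's log2 75th percentile, which was 178.9 (marrow) and 134.0 (fetal). Symbols came from RefSeq (GRCm38.p6) through each probe's accession, which named 27220 of 55664 probes. The array design uses mm9, so no probe coordinates are given. A gene took its probe with the highest mean signal and counted as measured if that probe stood well above background for marrow or fetal RNA. Where 1 of them did not, the difference is a bound against the dim probe's signal or the array's lowest well above background, whichever is higher. The median technical error was 0.21 log2, and repeated spots gave a median SD of 0.19 among the dimmest of 3 equal groups of 217 such probes and 0.06 among the brightest. The number of arrays limits the precision.

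Genes named are all members, all of the other family list, and up to 3 past 2-fold in each other list. Genes of GATA and FoxO factors are given as well because their motifs are shown. No gene was named for a similar pattern, since 2 arrays give 1 difference. The members and lists were chosen with earlier results of these data known. The normexp alternative (limma 3.58.1, offset 50) used median spot intensity. The scoring code (Python 3.11.15) was tested on simulated data.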

Additional observations from a re-analysis of the deposited data

How the results depend on the processing

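No paired analysis was possible because each group has 1 array, and no replicate could be left out. Scaling, quantile normalization, background, probe choice, the filter, outlier spots and the authors' value table gave 12 alternatives. Spike-in scaling adds 0.33 to each difference: the median of survival genes became 1.63, that of death genes 0.033, a turned sign, and 12 other cell death genes, in place of 5, passed 2-fold toward marrow cells, a count that was 8 when the percentile was taken over probes above background on both arrays. Of all genes at least 2-fold apart, 77.3% were higher in marrow cells under spike-in scaling, against 54.6%. Normexp correction was run on median spot intensity because the scanner output used here held no mean spot intensity, a form chosen after seeing the data. Its offset of 50 shrinks the folds of dim genes in any case. The correction left 2 members past 2-fold toward marrow cells and 1 toward fetal cells, a survival median of 1.02 and a gap between the roles of 1.23. It called fewer genes in all, 606 higher in marrow cells and 379 in fetal cells, against 1090 and 905. Taking each gene's dimmest probe left 1 member past 2-fold toward fetal cells. A threshold of 3-fold left 1 member, Bcl2l11, higher in marrow cells and 0 in fetal cells, where 6.68% of genes passed, and 1.5-fold left the counts at 4 and 2, where 32.5% passed. With no filter on dim probes 49.4% of all genes past 2-fold were higher in marrow cells, with no change in the members' counts. The contrasts of Mcl1 with Bcl2l1 (2.85 to 2.94) and Bcl2l11 with Bmf (1.22 to 3.22) kept their sign in all 12. Scaling by a constant cannot change these contrasts, so several of the 12 were not a check of them. Signal over background limits Bcl2l11, Bmf and Bcl2l2.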
